A study of Mus musculus with 20 samples.

Results

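Egfl6, Npnt, Egfl7, Egfl8 and Egflam encode secreted proteins with epidermal growth factor (EGF) repeats or related domains, and their RNA was followed here in the adult mouse hippocampus after gestational exposure to nanosized particulate matter (nPM) of urban air. The 5 genes were found by their symbols among 48709 genes in the deposited gene map, and all 5 were among the 19797 genes kept by a filter on low counts. Egfl6 was chosen by its higher level in nPM than in control samples, with all 20 samples used, and Npnt was taken as its paralogue. The nPM contrast of Egfl6 is therefore given as a description without a test, in both sexes together and within each sex.

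RNA-seq was done on the hippocampus of the right hemisphere of 20 young adult C57BL/6J mice after saline perfusion, with 5 animals in each of 4 groups. Control females and control males were offspring of dams that breathed filtered air. nPM females and nPM males were offspring of dams that breathed re-aerosolized nPM for 5 h/day on 3 days/week, starting on gestational day 2. The methods give this exposure as 300 μg/m3, while the sample labels write the same number with mg. Ages in the labels were 17.71 to 18.29 weeks in females and 18.57 to 19.14 weeks in males, and the males had also received a thymidine analogue to label dividing cells. The methods describe this injection for males and add that it was given to all animals, so treatment of the females is not clear. Sex and age, and this injection if the females had none, cannot be told apart. The adults came from 5 litters per exposure by the methods, so that the 10 animals of an exposure include littermates. The litter of each animal is not given, and p-values measure the spread between animals, not between litters. Summed over all genes, a library held 19092067 to 38663408 counts (median 29468930). Xist, the RNA that silences an X chromosome, had 15466 to 38047 counts in females and 0 to 59 in males, and the Y-linked Ddx3y had 0 to 7 and 3435 to 5525, in keeping with the sex labels. Libraries control male 1, nPM female 1 and nPM female 4 stood apart from the others, with an SD of 0.542, 0.548 and 0.608 of their log2 deviations from the group means over all genes tested, against at most 0.465 in the other 17. The limit of 0.5 that sets them apart was chosen after the values were seen.

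As background, EGF repeats are small disulfide-bonded modules found in many matrix proteins and Notch ligands. Egfl6 and nephronectin (Npnt) share a layout of EGF repeats, an RGD integrin-binding motif and a carboxy-terminal MAM domain. Nephronectin binds integrin alpha-8 beta-1 and is anchored in basement membranes with Fras1 and the Frem proteins. Egfl7 is secreted mainly by endothelial cells, acts on Notch signaling and lysyl oxidases, and carries miR-126 in an intron, while Egfl8 is its closest relative. Pikachurin (Egflam) binds dystroglycan and Gpr179 at photoreceptor synapses.

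Egfl6 (ENSMUSG00000000402.2, mm10, chrX:166523007-166585720, minus strand) had 43 to 119 counts per sample. Levels are given as CPM, counts scaled to a common library size with TMM factors. Egfl6 was at 2.30, 1.64, 1.84, 2.42 and 2.09 CPM in control females 1 to 5. It was at 2.48, 3.34, 4.13, 2.63 and 2.89 CPM in nPM females 1 to 5. In females the lowest nPM sample stood just above the highest control, with nPM female 3 highest. The share of all genes with groups apart in this way is not given here. Egfl6 was at 1.60, 2.96, 2.55, 2.14 and 2.63 CPM in control males 1 to 5. It was at 2.94, 3.46, 3.22, 3.21 and 3.15 CPM in nPM males 1 to 5. In males 4 of 5 nPM samples were above every control, while nPM male 1 was just below control male 2, and the nPM males lay close together. Females averaged 2.06 ± 0.32 CPM (SD, n = 5) without and 3.09 ± 0.67 with nPM, and males 2.38 ± 0.52 without and 3.20 ± 0.19 with nPM. The lowest of these 4 means was that of control females, followed by control males, nPM females and nPM males. The means of the control groups differed by less than their SDs, and so did those of the nPM groups. The log2 difference of nPM minus control was 0.50 (SE 0.12) in both sexes, 0.58 (SE 0.19) in females and 0.45 (SE 0.16) in males. These values chose Egfl6 and support no statement about it.

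Npnt (ENSMUSG00000040998.18, mm10, chr3:132881745-132950291, minus strand) had 296 to 968 counts per sample. It was at 24.9, 21.4, 24.6, 21.5 and 22.7 CPM in control females 1 to 5. It was at 24.8, 20.3, 10.3, 24.3 and 23.6 CPM in nPM females 1 to 5. In females the groups overlapped, and nPM female 3, the sample with the highest Egfl6, was the lowest of all 20 samples in Npnt. Npnt was at 13.0, 24.4, 17.4, 19.6 and 21.6 CPM in control males 1 to 5. It was at 25.7, 19.3, 22.2, 16.9 and 22.0 CPM in nPM males 1 to 5. The males overlapped over most of their range, with control male 1 lowest. Females averaged 23.0 ± 1.65 CPM (SD, n = 5) without and 20.6 ± 6.05 with nPM, and males 19.2 ± 4.31 without and 21.2 ± 3.30 with nPM. Ordered by size, neighboring means differed by less than the larger SD of the pair.

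Start regions, 250 bases before to 50 after the start of a transcript, were in the RefSeq table (GRCm38.p6) for all 5 genes, 9 windows in all. The 2 windows of Egflam, chr15:7398346-7398645 and chr15:7398341-7398640, share nearly all their bases, so the 9 are not separate sequences. The Npnt window with the most G+C held 76.7%, the Egfl6 window 65.3% and the Egfl8 window 55.7%, the lowest of the 9, beside a median of 52.7% over 32851 promoters of this length. The letters GGGCGG of a GC box, on either strand, matched 4 times in 1 of the 2 Npnt windows and in 1 of the 3 Egfl7 windows and 1 time in the windows of Egfl6, Egfl8 and Egflam, and 35.7% of all promoters held them. TATAAA and CACGTG, on either strand, were in 0 of the 9 windows, and in 13.6% and 7.15% of all promoters. These matches are a description of the letters alone.

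Egfl7 (ENSMUSG00000026921.18, mm10, chr2:26580014-26593120, plus strand) had 154 to 629 counts per sample. It was at 15.4, 13.4, 11.9, 15.7 and 14.5 CPM in control females 1 to 5. It was at 12.7, 14.6, 17.8, 8.43 and 17.5 CPM in nPM females 1 to 5. The nPM females lay on both sides of the controls, with nPM female 4 lowest of all 20 samples and nPM females 3 and 5 highest. Egfl7 was at 14.8, 13.0, 11.3, 16.3 and 13.9 CPM in control males 1 to 5. It was at 16.7, 13.1, 14.3, 13.1 and 12.7 CPM in nPM males 1 to 5. The males overlapped, and the 4 group means lay between 13.9 and 14.2 CPM, closer together than the smallest SD of a group, 1.55 CPM.

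The miR-126 precursors, which lie within Egfl7, were nearly without counts. Mir126a, of 73 bases on the strand of Egfl7, had 0 counts in all 20 samples. Mir126b, of 58 bases on the opposite strand, had 1 count in each of 2 samples, nPM female 2 and nPM female 4. With 0 counts, a true value of up to 3 counts is possible, 0.0784 to 0.164 CPM at these depths, counting error alone considered. Libraries of long RNA do not measure mature miRNAs, so these values say nothing of their level. The source used here held 3 mature forms, with no 5p form of miR-126a among them. They are shown because their precursors lie within Egfl7, that of miR-126a on its strand and that of miR-126b on the other. They come from RefSeq (GRCm38.p6), mmu-miR-126a-3p at chr2:26591402-26591423 on the plus strand, mmu-miR-126b-3p at chr2:26591363-26591385 and mmu-miR-126b-5p at chr2:26591399-26591420 on the minus strand, with the seed (bases 2 to 8) in capitals.
mmu-miR-126a-3p: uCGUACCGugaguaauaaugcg
mmu-miR-126b-3p: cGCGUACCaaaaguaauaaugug
mmu-miR-126b-5p: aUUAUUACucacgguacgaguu
No pair of these seeds is the same.

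Egfl8 (ENSMUSG00000015467.14, mm10, chr17:34613349-34615971, minus strand) was the gene with the fewest counts, 4 to 37 per sample. It was at 0.224, 0.153, 0.187, 0.556 and 0.578 CPM in control females 1 to 5. It was at 0.595, 0.286, 0.243, 2.03 and 0.492 CPM in nPM females 1 to 5. nPM female 4 stood far above every other sample, while the other nPM females overlapped the controls. Egfl8 was at 0.559, 0.429, 0.554, 0.653 and 0.363 CPM in control males 1 to 5. It was at 0.557, 0.513, 0.319, 0.304 and 0.242 CPM in nPM males 1 to 5. The males overlapped, with 3 of 5 nPM males below every control. The last 101 bases of Egfl8 lie under the last exon of Agpat1 on the opposite strand, 5.74% of its exon bases, and Agpat1, an acyltransferase of phosphatidic acid synthesis, had 513 to 2107 counts. The strand setting of the counting is not given in the sources used here, so reads of the overlap cannot be assigned to either gene with certainty. In nPM female 4, where Egfl8 was highest, Agpat1 had its lowest count and the antisense genes of the annotation took 0.309% of all counts, against 0.128% to 0.200% in the other 19 samples. The part of these values in the level of Egfl8 was not tested.

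Egflam (ENSMUSG00000042961.13, mm10, chr15:7206120-7398395, minus strand) had 35 to 192 counts per sample. It was at 5.57, 2.45, 2.21, 2.23 and 2.40 CPM in control females 1 to 5. It was at 1.88, 2.38, 3.02, 1.92 and 4.20 CPM in nPM females 1 to 5. Control female 1 was far above the other controls, and the groups overlapped. Egflam was at 3.06, 3.71, 1.81, 2.43 and 2.18 CPM in control males 1 to 5. It was at 5.09, 2.43, 2.12, 2.32 and 2.33 CPM in nPM males 1 to 5. nPM male 1 stood alone above the others, and the remaining males overlapped. The marker genes of thalamus, a neighbor of the hippocampus, summed to 206 CPM in nPM male 1, the highest of 20 samples, against a median of 91.4 CPM. They summed to 119 CPM in control female 1, where Egflam was highest, and to 156 CPM in control female 3, where Egflam was at 2.21 CPM. As deviations from group means over 20 samples, Egflam and this list had r = 0.45 (permutation p = 0.0843, adjusted p = 0.436 over 80 relations) and rho = 0.35 (permutation p = 0.155, adjusted p = 0.622). Without the 2 samples farthest from the median of the list r was 0.36, and it was 0.22 within females and 0.65 within males.

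**Figure D1:**
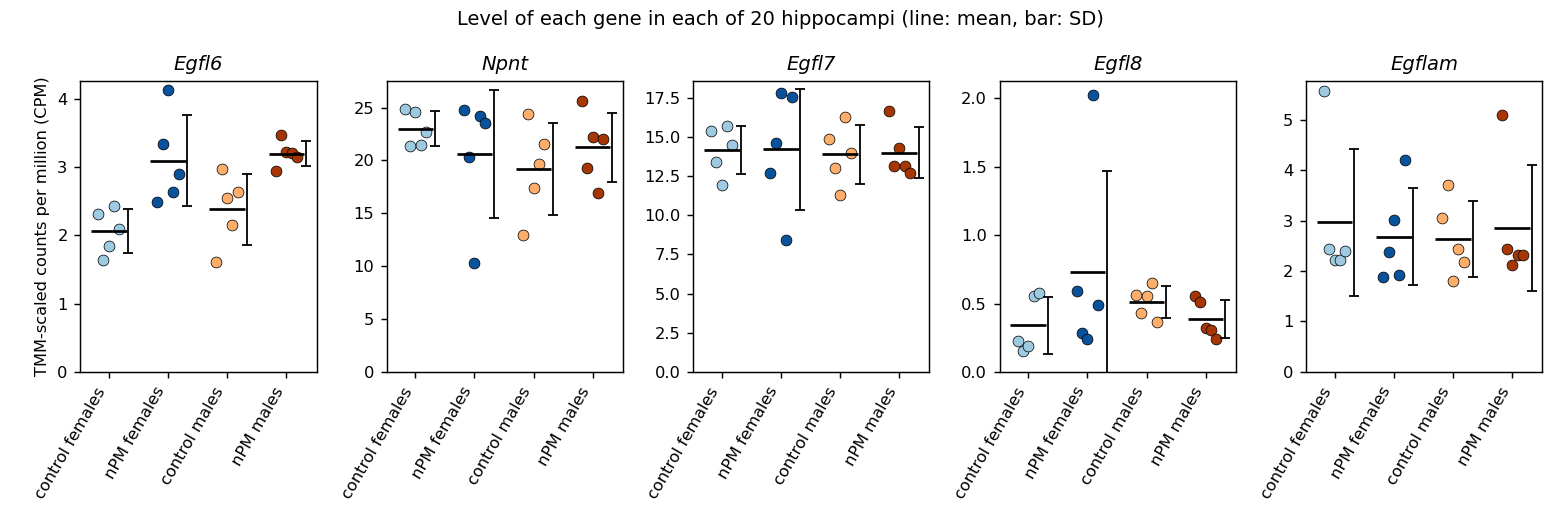
TMM-scaled CPM (vertical axes from 0) of the 5 genes in each of 20 hippocampi by group, with group means as lines and SD as bars (that of Egfl8 in nPM females ends at the axis). Egfl6 was chosen by its nPM contrast over all 20 samples, so its nPM and control values are a description only. Control and nPM samples of Npnt, Egfl7, Egfl8 and Egflam overlap in both sexes, and Egfl8 peaks at 2.03 CPM in nPM female 4.

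Per length of exon, Npnt and Egfl7 were the most abundant of the 5 genes, and their order changed between samples. Npnt was at 4.58 ± 0.329 CPM per kilobase (SD, n = 5) in control females and Egfl7 at 3.96 ± 0.432. Egfl6 followed at 0.762 ± 0.119, Egflam at 0.485 ± 0.238 and Egfl8 at 0.193 ± 0.119 CPM per kilobase in the same group. Npnt was above Egfl7 in 13 of 20 samples and below it in the remaining 7, and Egfl6 came next after both in 18 of 20. The exceptions were nPM female 4, where Egfl8 was above Egfl6, and control female 1, where Egflam was above it. The ratio of Npnt to Egfl6 per length had a median of 4.42 over 20 samples. It ranged from 1.34 in nPM female 3 to 7.19 in a control female. Over the transcripts of GENCODE version M21, the longest run of bases shared by any pair of the 5 genes on either strand was 14, and 12 between Egfl6 and Npnt.

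Spread within groups differed widely between the genes. The SD of log2 CPM within groups was 0.255 for Egfl6 and 0.267 for Egfl7, beside a median of 0.256 over all genes tested. It was 0.343 for Npnt, 0.496 for Egflam and 0.784 for Egfl8, which was above that of 92.0% of the genes tested. Egfl8 also had the fewest counts of the 5.

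After gestational nPM, limma called 0 of the 4 genes other than Egfl6, where 0.141% of all genes were called. The question was whether these 4 genes differed between nPM and control animals. With sex as a covariate, the log2 difference of nPM minus control was -0.03 (95% interval -0.33 to 0.26) for Npnt and 0.00 (-0.21 to 0.22) for Egfl7. It was 0.12 (-0.58 to 0.82) for Egfl8 and 0.01 (-0.42 to 0.44) for Egflam. Each had a limma adjusted p of 0.9998. A call means p under 0.005 from limma-voom, the threshold of the study's methods, which 28 of 19797 genes passed, beside 99.0 expected by chance. At an adjusted p under 0.05 limma called 0% of genes, and the edgeR and DESeq2 tests called 0 too. With p under 0.05 before adjustment there were 416 genes by limma, 415 by edgeR and 437 by DESeq2. Of the 4 genes other than Egfl6 there were 0 by any of these. The count of 28 genes was 17 without control female 1, 45 without control female 5 and 47 without nPM female 4. It was 48 without the 3 libraries that stood apart. Of the 4 genes other than Egfl6, 0 were called each time. Without these 3 libraries the log2 difference was -0.16 for Npnt, 0.13 for Egfl7, -0.17 for Egfl8 and 0.19 for Egflam. The sign of Egflam also turned in the edgeR and DESeq2 tests.

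Within females, 0 of the 4 genes other than Egfl6 were called, beside 0.0909% of all genes. The log2 difference was -0.22 (95% interval -0.67 to 0.23) for Npnt, 0.01 (-0.36 to 0.39) for Egfl7, 0.78 (-0.44 to 2.00) for Egfl8 and -0.07 (-0.72 to 0.59) for Egflam. Without nPM female 3 the value of Npnt was 0.03, and without nPM female 4 that of Egfl8 was 0.40. Without nPM females 1 and 4, the libraries of this fit that stood apart, Npnt had -0.43, Egfl7 0.26, Egfl8 0.19 and Egflam 0.22. Within males, 0 of 4 were called, beside 0.207% of all genes. The log2 difference was 0.15 (95% interval -0.19 to 0.50) for Npnt, 0.01 (-0.24 to 0.25) for Egfl7, -0.43 (-1.08 to 0.22) for Egfl8 and 0.10 (-0.48 to 0.68) for Egflam. Without control male 1 the value of Npnt was 0.03, and without nPM male 1 that of Egflam was -0.15. At an adjusted p under 0.05 limma called 0% of genes in females and in males, edgeR called 0 genes in each and DESeq2 1 gene in each. With p under 0.05 before adjustment there were 393 genes in females and 848 in males by limma, 594 and 845 by edgeR and 571 and 857 by DESeq2. Of the 4 genes other than Egfl6 there were 0 by each tool in each sex. The count of 18 called genes in females was 10 without nPM female 5, 33 without nPM female 1 and 48 without nPM female 4. In males the count of 41 was 23 without nPM male 5 and 78 without nPM male 4.

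The difference between the nPM effects of the sexes was called for 0 of 5 genes, beside 0.217% of all genes. As male effect minus female effect, it was -0.12 (95% interval -0.62 to 0.38) for Egfl6, 0.39 (-0.19 to 0.97) for Npnt and 0.01 (-0.44 to 0.46) for Egfl7. It was -1.20 (-2.55 to 0.15) for Egfl8 and 0.18 (-0.70 to 1.07) for Egflam. The limma adjusted p was between 0.987 and 0.998 for the 5 genes. Without nPM female 4 the value of Egfl8 was -0.83, and without nPM female 3 that of Npnt was 0.14. For Egfl6 it was -9.56e-05 without nPM female 3, -0.24 without control male 1 and -0.40 without the 3 libraries that stood apart. With these libraries left out, Egfl8 had -0.57, Egfl7 -0.22 and Egflam -0.04. At an adjusted p under 0.05 limma called 0% of genes, DESeq2 0 genes and edgeR 1 gene. With p under 0.05 before adjustment there were 751 genes by limma, 968 by edgeR and 959 by DESeq2, and of the 5 genes 0 by limma, 0 by edgeR and 1 by DESeq2, Egfl8. The count of 43 called genes was 24 without control female 3 and 77 without control female 1.

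Between the sexes, limma called 0 of the 5 genes although 31.1% of all genes passed p under 0.005 and 40.4% passed an adjusted p under 0.05. The log2 difference of male minus female was 0.11 (95% interval -0.13 to 0.36) for the X-linked Egfl6, -0.09 (-0.39 to 0.21) for Npnt and -0.02 (-0.24 to 0.20) for Egfl7. It was 0.12 (-0.58 to 0.82) for Egfl8 and -0.04 (-0.47 to 0.39) for Egflam. The limma adjusted p of the 5 genes was between 0.458 and 0.901. The 5 differences were at most 0.12 in size, beside a median size of 0.23 over all genes tested. This size rests on single libraries: without nPM female 4 Egfl8 had 0.35. Without nPM female 3 Npnt had -0.22, Egfl6 0.18 and Egfl8 0.01. Without the 3 libraries that stood apart the values were 0.45 for Egfl8, -0.22 for Egflam and -0.16 for Egfl7. The edgeR and DESeq2 tests called 0 of the 5 as well, beside 6138 and 6723 of all genes. Before adjustment 9591 genes by limma, 9606 by edgeR and 9693 by DESeq2 had p under 0.05. Each of the 3 tools gave 0 of the 5 among these. For Egfl8 the sign turned in the edgeR and DESeq2 tests, with -0.15 and -0.16, and for Npnt without the 3 libraries that stood apart, with 0.03.

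**Figure D2:**
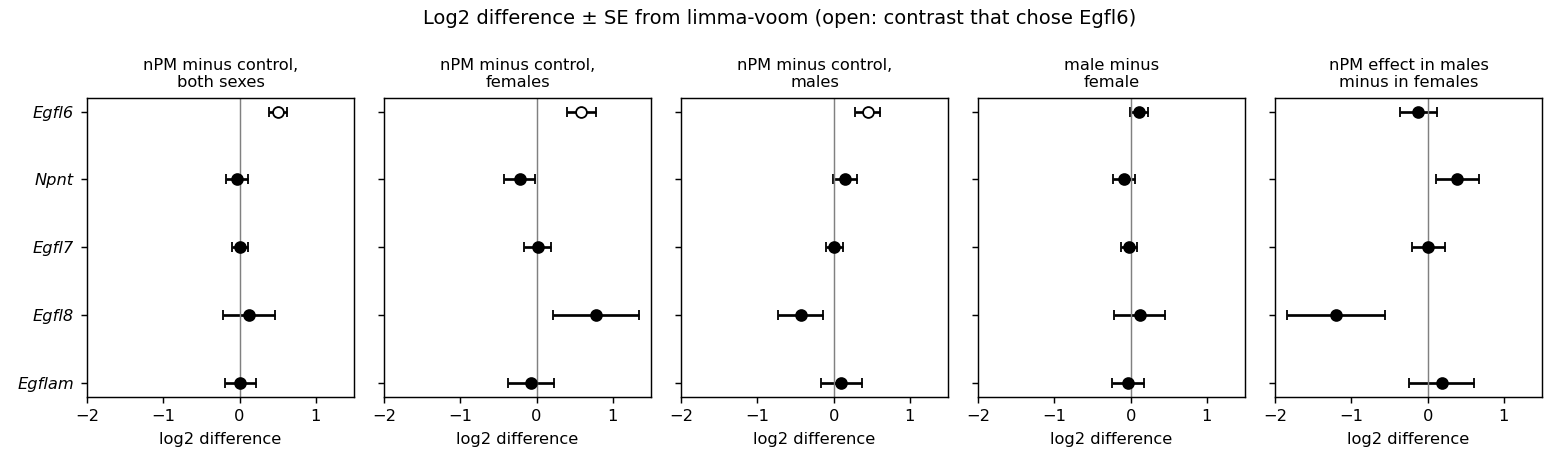
Log2 difference (horizontal axes) with its SE for the 5 genes in 5 comparisons by limma-voom, with open circles for the contrast that chose Egfl6. The bars are longest for Egfl8, with -1.20 in the comparison of the nPM effects between the sexes.

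Integrins that bind the RGD motif are the receptors of nephronectin and Egfl6, and 9 of 9 listed subunits were tested. The partner of nephronectin, Itga8, was at a median of 40.9 CPM, and Itgb1, with which it forms the receptor, at 70.6 CPM. Itgav, which pairs with several beta subunits, was at 134 CPM, and its partners Itgb8 and Itgb5 were at 139 and 28.1 CPM. Itgb3, Itga5, Itga2b and Itgb6 were at a median of 2.31, 1.37, 1.13 and 0.127 CPM. After nPM in both sexes 0 of 9 subunits were called, with a median log2 difference of 0.01 beside -0.01 over all genes tested. The median of the 9 was 0.17 in females and -0.12 in males, beside 0.00 and 0.00 over all genes, and -0.25 in the comparison of the nPM effects between the sexes, beside 0.01, with 0 called in each. The markers of meningeal fibroblasts, given below with the lysyl oxidases, ran the same way in each sex. Their part in these medians was not tested. Between the sexes 1 of 9 was called higher in males, beside 13.9% of all genes, and 0 lower, beside 17.1%. This was Itgb8, at 126 ± 22.2 CPM in females and 166 ± 20.2 in males (SD), with a log2 difference of 0.40 (SE 0.085, limma adjusted p = 0.000839) and 10 of 10 males above the female median. Itga8 had a log2 difference of -0.25 (SE 0.13, limma adjusted p = 0.120) between the sexes.

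The partners that hold nephronectin in basement membranes were led by Fras1, at a median of 44.3 CPM, with Frem1 at 9.90, Frem2 at 9.67 and Frem3 at 3.19 CPM. Of these 4 genes limma called 0 between the sexes, beside 31.1% of all genes. It also called 0 in the other 4 comparisons, where 0.0909% to 0.217% of all genes were called. Frem1 ranged from 5.76 to 52.8 CPM over the 20 samples. Lysyl oxidases cross-link collagen and elastin and are bound by Egfl7, and all 5 were tested. Loxl3 was the most abundant, at a median of 3.96 CPM, and Loxl4 the least, at 0.145 CPM. The median log2 difference of nPM minus control over the 5 was 0.85 in females and -0.33 in males, beside 0.00 and 0.00 over all genes tested. These medians rest on 0 called genes. In the comparison of the nPM effects between the sexes the median over the 5 lysyl oxidases was -1.26, beside 0.01 over all genes, again with 0 called. The 9 markers of meningeal fibroblasts, cells that make matrix, had a mean sum of 68.4 CPM without and 118 with nPM in females (medians 64.2 and 82.0), and of 164 CPM without and 106 with nPM in males (medians 200.7 and 85.4), with Igf2 the most abundant. The 8 markers of choroid plexus, with Ttr the most abundant, varied far more between samples. Their sum had a median of 286 CPM without and 91.5 with nPM in females, while the mean, 255 CPM without and 2049 with nPM, ran the other way through nPM female 1 at 8245 CPM and nPM female 5 at 1780 CPM. In males the median was 2967 CPM without and 841 with nPM, over single samples from 34.9 to 7364 CPM. Without the libraries that stood apart the medians of the lysyl oxidases were 0.42 in females and -0.56 in males. Those left out were nPM females 1 and 4 in females and control male 1 in males. The part of meninges and choroid plexus in these medians was not tested.

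Notch receptors and ligands, on which Egfl7 acts, were led by Notch2 at a median of 65.5 CPM and Notch1 at 39.2 CPM. Between the sexes 2 of 8 were called lower in males and 0 higher, beside 17.1% of all genes lower and 13.9% higher. Notch4, a receptor of endothelial cells, was at 4.17 ± 0.82 CPM in females and 2.55 ± 0.47 in males (SD), with a log2 difference of -0.72 (SE 0.13, limma adjusted p = 0.000288) and 10 of 10 males below the female median. Notch1 had a log2 difference of -0.50 (SE 0.11, limma adjusted p = 0.000867), again with 10 of 10 males below. Without the 3 libraries that stood apart 4 of 8 were called lower and 0 higher, beside 18.3% and 13.4% of all genes in that fit. After nPM 0 of 8 were called in both sexes. The 10 endothelial markers, with Slco1a4 the most abundant, summed to a mean of 180 CPM without and 202 with nPM in females, and to 151 CPM in both groups of males. Their part in the sex difference of Notch1 and Notch4 was not tested. In bulk tissue fewer cells of a type and less RNA per cell cannot be told apart.

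Dystroglycan, the receptor of pikachurin, was measured with its complex. Dag1 was at a median of 75.7 CPM with a log2 difference of -0.10 (SE 0.065, limma adjusted p = 0.221) between the sexes and 0.03 (SE 0.065, limma adjusted p = 0.9998) after nPM. Gpr179, the partner of pikachurin in the retina, was at 0.526 CPM. Of 8 genes of the complex tested, 2 were called higher in males, beside 13.9% of all genes, and 0 lower, beside 17.1%. The median log2 difference of the 8 was -0.11, opposite in sign to these calls, and without the 3 libraries that stood apart 2 were called higher and 1 lower, beside 13.4% and 18.3% of all genes in that fit. Sgcb, a sarcoglycan, had a log2 difference of 0.19 (SE 0.045, limma adjusted p = 0.00209) and Sspn, sarcospan, of 0.28 (SE 0.068, limma adjusted p = 0.00216), with 10 and 9 of 10 males above the female median. Of 12 enzymes that build the glycans on dystroglycan, 3 were called higher in males and 0 lower, beside the same 13.9% and 17.1%, with log2 differences of 0.20 for Pomk, 0.20 for B4gat1 and 0.31 for Rxylt1. With those 3 libraries left out 3 were called higher and 1 lower, beside the same 13.4% and 18.3%. The markers of astrocytes and microglia, with the sums given above beside Itgb8, also ran higher in males. Their part in the calls of these lists was not tested. After nPM 0 of these 20 genes were called in both sexes.

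Of 22 basement membrane components 5 were called lower in males, beside 17.1% of all genes, and 0 higher, beside 13.9%, with log2 differences of -0.54 for Col4a1 and -0.51 for Col4a2, chains of the collagen network, -0.30 for the laminin chain Lamc1, -0.52 for Lama3 and -0.39 for the proteoglycan Agrn. The endothelial markers had the sums given above with the Notch genes, and their part in these values was not tested. Of 34 other matrix proteins with EGF repeats 8 were called lower and 1 higher, beside the same 17.1% and 13.9%. Those lower were Slit3 and Slit1, ligands of axon guidance, with log2 differences of -0.74 and -0.42, Scube2 with -0.95, Fbln2 with -0.65, the fibrillin Fbn2 with -0.61, Ltbp4 with -0.59, Tnr with -0.30 and Egfem1 with -0.29. Edil3, an RGD protein with EGF repeats, was higher, with 0.28. The median log2 difference of male minus female was -0.13 over the basement membrane list and -0.10 over the matrix proteins, beside 0.02 over all genes tested. With RLE factors these medians were -0.13 and -0.10, and the calls were 5 and 8 lower and 0 and 1 higher, beside 17.2% of all genes lower and 13.7% higher. With DESeq2 the medians were -0.11 and -0.17, beside 0.01 over all genes, and the calls were 5 and 8 lower and 0 and 2 higher, beside 18.7% and 15.3%. Without the 3 libraries that stood apart the medians were -0.16 and -0.14, beside 0.00, and the calls were 6 and 8 lower and 0 and 1 higher, beside 18.3% and 13.4%. After nPM 0 genes of either list were called in both sexes, in females or in males.

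**Figure D3:**
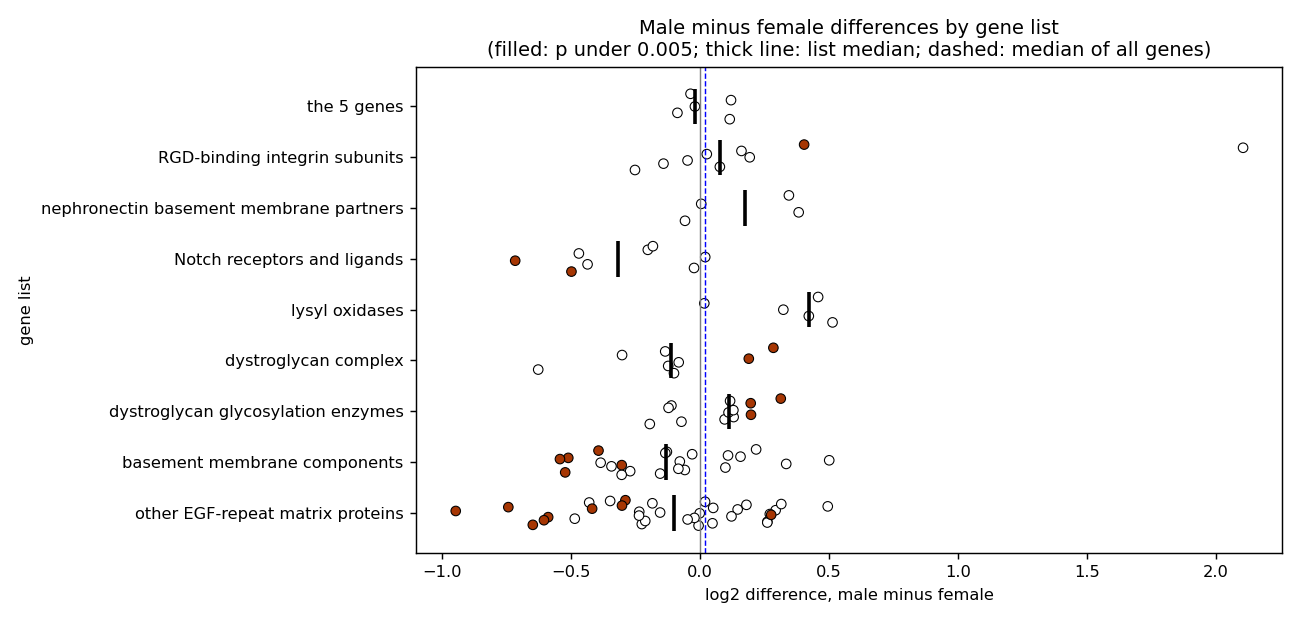
Log2 difference of male minus female (horizontal axis) for the 5 genes and for each gene of 8 lists, with called genes filled, list medians as thick lines and the median of all genes dashed. The 5 genes lie within 0.12 of 0 with 0 called, and 8 of 34 other matrix proteins with EGF repeats are called lower in males, beside 17.1% of all genes.

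Marker genes of cell types and neighboring tissue were summed in each sample and set beside the 5 genes, as deviations from the group means so that the nPM contrast was left out. Of 80 relations between 5 genes and 16 lists, 0 had a Benjamini-Hochberg adjusted p under 0.05 for Pearson's r or for Spearman's rho. Egfl7 was most related to mural cells, the pericytes and smooth muscle of vessels, with r = 0.78 (permutation p = 0.00117, adjusted p = 0.0816) and rho = 0.67 (permutation p = 0.0069, adjusted p = 0.139) over 20 samples. Without the 2 samples farthest from the median of the list r was 0.62, and it was 0.92 within females and 0.41 within males. Egfl7 and the endothelial list had r = 0.51 (permutation p = 0.0833, adjusted p = 0.436) and rho = 0.56 (permutation p = 0.0193, adjusted p = 0.309). Without the 2 farthest samples r was 0.48, and it was 0.56 within females and 0.45 within males.

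Npnt was most related to dentate granule cells, the neurons of the dentate gyrus, with r = 0.73 (permutation p = 0.00204, adjusted p = 0.0816) and rho = 0.62 (permutation p = 0.00695, adjusted p = 0.139). The list was at 116 CPM in control male 1 and 179 CPM in nPM female 3, the samples with the lowest Npnt, against a median of 269 CPM. Without these 2 samples, which were also the farthest from the median of the list, r was 0.47, and it was 0.67 within females and 0.81 within males. Without the 3 libraries that stood apart the dentate list was no longer first. Its r was then 0.55, against 0.56 for meningeal fibroblasts and -0.62 for oligodendrocyte precursors. With the CA fields, the pyramidal cell layers, Npnt had r = -0.51 (permutation p = 0.0869, adjusted p = 0.436) and rho = -0.43 (permutation p = 0.0707, adjusted p = 0.435), with -0.10 without the 2 farthest samples, -0.71 without the 3 libraries that stood apart, -0.78 within females and 0.14 within males. Egfl6 was most related to microglia, with r = 0.68 (permutation p = 0.0034, adjusted p = 0.0907) and rho = 0.71 (permutation p = 0.00336, adjusted p = 0.139). Without the 2 farthest samples r was 0.66, and it was 0.75 within females and 0.65 within males. The 6 markers of microglia averaged 218 CPM without and 247 with nPM in females, and 272 without and 271 with nPM in males. Its part in the level of Egfl6 was not tested.

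**Figure D4:**
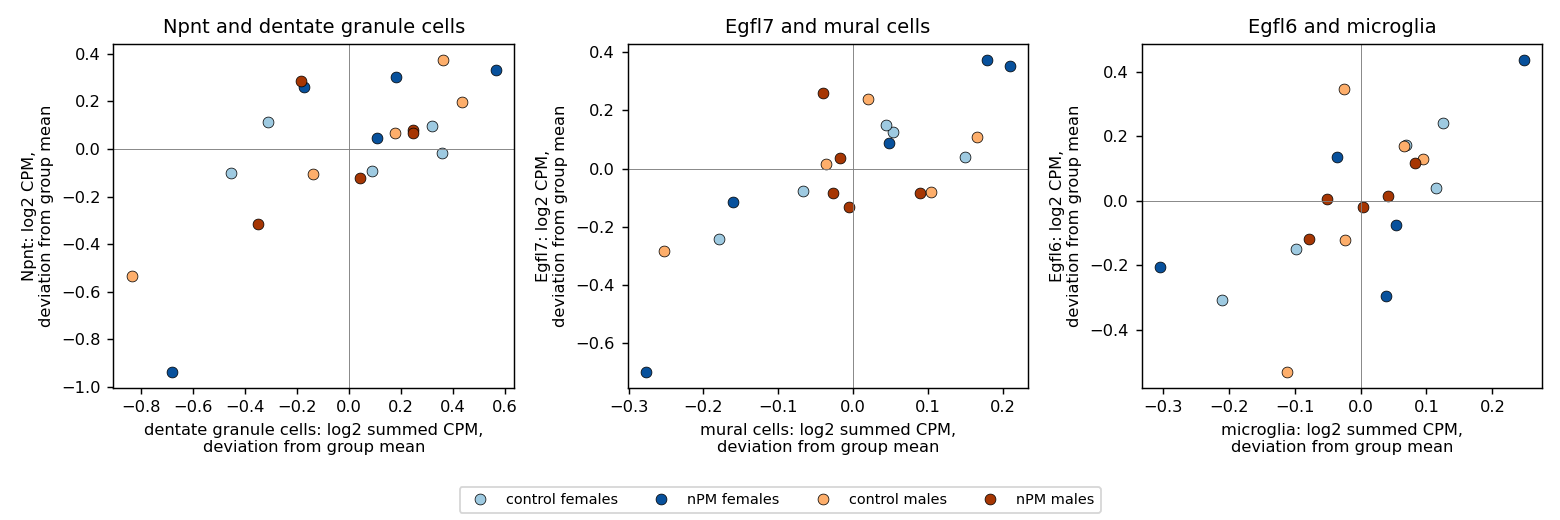
Deviations from group means of Npnt, Egfl7 and Egfl6 (vertical axes, log2 CPM) against those of the marker list with the highest r (horizontal axes, log2 summed CPM), 20 samples by group. The lowest Npnt samples, nPM female 3 and control male 1, are also the lowest in the dentate list, and nPM female 4 is lowest in both Egfl7 and the mural list.

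Egflam was most related to mural cells, with r = 0.54 (permutation p = 0.0195, adjusted p = 0.333) and rho = 0.69 (permutation p = 0.00452, adjusted p = 0.139). Without the 2 farthest samples r was 0.45, and it was 0.61 within females and 0.44 within males. This rank holds over all 20 samples. Without the 3 libraries that stood apart r was 0.39 for mural cells, 0.56 for thalamus and -0.62 for the CA fields. For Egfl8 no list had an adjusted p below 0.333. The choroid plexus list varied most, from 34.9 CPM in control male 3 to 8245 CPM in nPM female 1, with Ttr making up 88.9% of its sum. Each of the 16 lists was detected, and Alas2 of the blood list was the only marker at 0 counts in any sample, in 1 of 20.

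**Figure D5:**
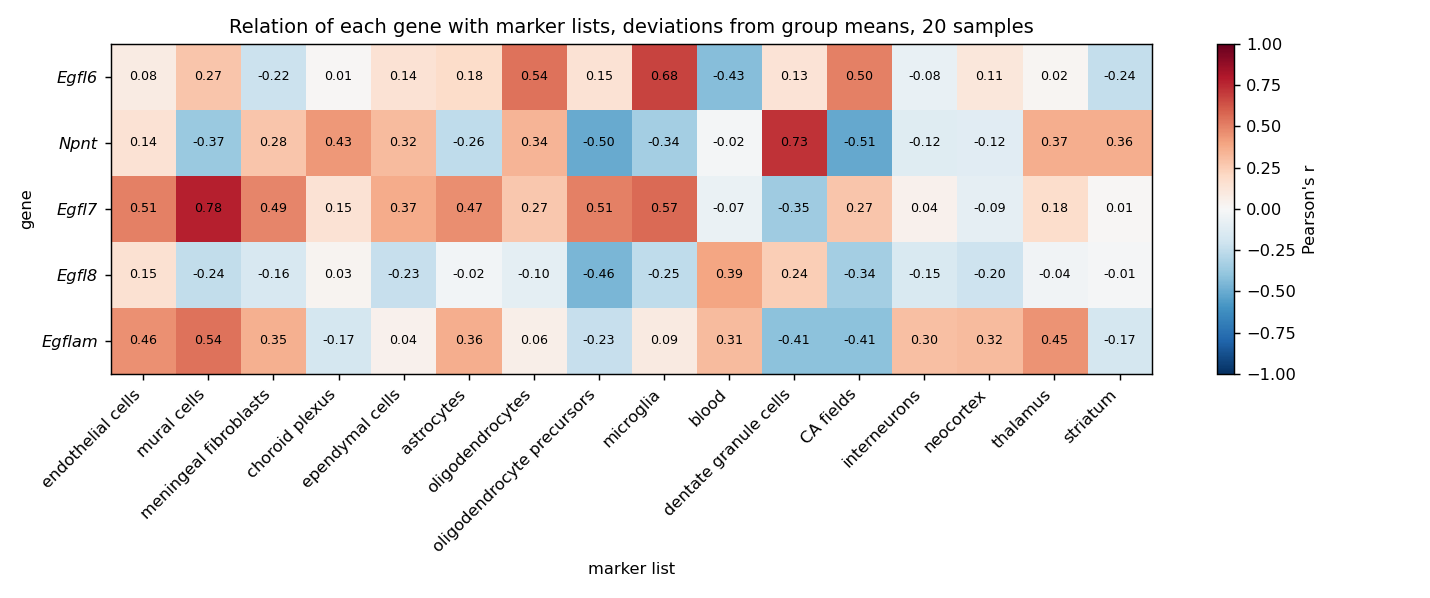
Pearson's r of the 5 genes with 16 marker lists over 20 samples, as deviations from group means, on a colour scale from -1 to 1. The highest values are 0.78 for Egfl7 with mural cells, 0.73 for Npnt with dentate granule cells and 0.68 for Egfl6 with microglia.

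The genes most like each of the 5, by Pearson's r of the deviations from group means over 20 samples among all genes tested, were taken as the 5 highest, so their r is a description without a p. For Egfl6 these were Cldn22 (r = 0.81), Lefty1 (0.80), P2rx3 (0.77), Gm26881 (0.76) and Zfpm1 (0.76). For Npnt they were Dsp (0.83), a desmosome protein and itself a dentate granule marker, Col6a4 (0.83), Mtmr10 (0.81), Olfr46 (0.81) and Nr2c1 (0.81). For Egfl7 they were Tst (0.94), Paqr7 (0.89), Lcat (0.89), Sipa1 (0.88) and 4933431K14Rik (0.87). For Egfl8 they were Eapp (0.83), Pirb (0.78), Rpl6l (0.78), Prpf6 (0.77) and Gm16933 (0.76). For Egflam they were the transporter Slc13a3 (0.87), Susd2 (0.85), the GABA transporter Slc6a11 (0.85), Hs3st3b1 (0.84) and the astrocyte water channel Aqp4 (0.84). Aqp4 is itself 1 of the 7 astrocyte markers. Egflam and that whole list had r = 0.36 (permutation p = 0.146, adjusted p = 0.488) and rho = 0.19 (permutation p = 0.451, adjusted p = 0.854). Without the 3 libraries that stood apart the r of these 25 genes was between 0.56 and 0.91, with Gm26881 lowest and Tst highest.

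Genes that lay within 5000 bases of the 5 were few. Tceanc lay 4439 bases from Egfl6 on the same strand and had 50 to 166 counts. Gm29811 lay 3148 bases from Npnt and had at most 16 counts, and Gm23196 within Npnt had 0. The last 64 bases of Egfl7 overlap Agpat2 on the opposite strand, 1.79% of the exon bases of Egfl7, and Agpat2 had 7 to 78 counts. Ppt2, 690 bases from Egfl8 on the same strand, had 70 to 234 counts. Gm20532 and Gm20460, which overlap Egfl7 and Egfl8 on the same strand, had 0 counts in all samples, as had Gm16030 within Egflam, and Gm16029 at the start of Egflam had 1 count in 1 sample.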

How the data were processed

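The authors depleted rRNA, aligned reads with HISAT2 (mm10) and counted them with featureCounts 1.5.0-p3 over Gencode version M11. The deposited files give raw counts for 48709 genes and a mean RPKM per gene, which was recomputed from the counts to within 5.28e-11 and used in no test. The strand setting and the rule for reads with several alignments are not given in the sources used here. The 5 genes and all gene lists were chosen with earlier results of these data known. TMM factors (edgeR 4.0.16, 0.958 to 1.06 over 20 samples) were computed within the samples of each fit, a choice made after both this and factors over all 20 samples had been seen, and filterByExpr over the 4 groups (minimum count 10, minimum total 15) left 19797 genes. limma-voom (limma 3.58.1, R 4.3.3) with empirical Bayes moderation, after 0.5 was added to each count, gave two-sided p-values, adjusted by Benjamini-Hochberg over all genes tested. Fits were nPM with sex as covariate, which also gave the sex difference, nPM within each sex, and the interaction. Sums of marker genes were related to the 5 genes as deviations from group means with 100000 permutations within groups. Genes named were the 5, genes of 9 pathway lists with p under 0.005 in any comparison, all integrin subunits, nephronectin partners and miR-126 precursors, Notch4, Dag1 and Gpr179, the 5 genes most like each, genes within 5000 bases and notable markers. Most abundant genes of other lists were named after their values were seen. Of the list symbols, 3 were absent from the gene map. Other settings tried were Wald tests in DESeq2 1.42.0, quasi-likelihood tests in edgeR, RLE factors, no filter, quality weights, a replicate block, age, each sample left out, and, chosen after seeing the data, 3 libraries left out together and TMM factors over all samples. The fits were tested on simulated data. Squared differences between 40 pairs of samples of 1 group were 14.6 to 90.9 times counting noise. Tables and figures were made in Python 3.11.15 (pandas 2.3.3, matplotlib 3.10.9, numpy 2.4.6).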

Additional observations from a re-analysis of the deposited data

Results flagged for a closer look

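Among 20 sets of 5 samples (5 genes in 4 groups), 3 had a sample whose gap to its nearest neighbor was over 0.71 of the range of its group. Chance gives about 1 in 20. These ratios are of CPM. On log2 CPM 3 sets were over the same limit, but Egfl8 in nPM females, with 0.586, was not among them, and Npnt in nPM females, with 0.774 for nPM female 3, was. Egfl8 was at 2.03 CPM in nPM female 4, from 37 counts. Egflam was at 5.57 CPM in control female 1 and at 5.09 CPM in nPM male 1.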

How the results depend on the processing

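Of the 5 genes, those tested kept their calls (0) in each comparison of both sexes, of the sexes and of the interaction under every setting, each sample left out included. Of 190 log2 differences under settings other than leaving out 1 sample, 18 changed sign, and of 400 with 1 sample left out, 51. Both totals include the nPM contrasts of Egfl6, by which it was chosen. With 1 sample left out, 0 of those contrasts changed sign. For each change in count or sign the cause was not tested.

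With edgeR, Egflam after nPM in both sexes was -0.01057, Egfl8 between the sexes -0.1506 and the interaction called 66 genes. DESeq2 gave -0.0122 and -0.1566 for these, and called 43 genes in both sexes, 55 in females, 113 in males and 89 for the interaction. With no filter the counts were 71, 87, 130 and 149. With sample weights they were 53 in both sexes and 44 in females. The weights gave -0.06065 for Egfl8 and -0.05835 for Egflam in both sexes, -0.005352 for Egflam in males and -0.06091 for the interaction of Egfl7. With age as a covariate Egfl7 was -0.01054 and Egflam -0.0452 in both sexes. TMM factors over all samples, a setting added after seeing the data, gave -0.00367 for Egfl7 in females.

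The labels share replicate numbers between groups and state no pairing. With a block for the replicate number Egflam in both sexes was -0.02833 and Egfl8 between the sexes -0.02953.

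Without the 3 libraries that stood apart, chosen after seeing the data, 48 genes were called in both sexes and 38 in females. Egfl8 in both sexes was -0.1734, Egflam in females 0.2153, Npnt between the sexes 0.03103, and the interaction -0.2168 for Egfl7 and -0.04278 for Egflam.

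With each sample left out in turn, lowest and highest values were 17 and 47 genes in both sexes, 10 and 48 in females, 23 and 78 in males and 24 and 77 for the interaction. In both sexes they were -0.104 and 0.09043 for Npnt, -0.03793 and 0.07361 for Egfl7, -0.09046 and 0.2299 for Egfl8, and -0.1155 and 0.1294 for Egflam. In females they were -0.3194 and 0.02926 for Npnt, -0.07884 and 0.1547 for Egfl7, and -0.2621 and 0.1932 for Egflam. In males they were -0.07155 and 0.06909 for Egfl7 and -0.153 and 0.2154 for Egflam. Between the sexes they were -0.1032 and 0.02226 for Egfl7 and -0.1512 and 0.09462 for Egflam. For the interaction they were -0.1402 and 0.1011 for Egfl7 and -0.0937 and 0.3623 for Egflam. The depth limits Egfl8 most, with 4 to 37 counts per sample.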

Other observations

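The 5 genes were also related to each other, as deviations from group means over 20 samples, a comparison added after the data were seen. Of 10 pairs, Egfl7 and Egflam had the largest r, 0.58 (permutation p = 0.00901), and rho, 0.71 (permutation p = 0.0025), with r = 0.59 within females, 0.58 within males, 0.58 without the 2 samples farthest from the median of Egflam and 0.54 without the 3 libraries that stood apart. After Benjamini-Hochberg adjustment over the 10 pairs the p was 0.0901 for r and 0.025 for rho. Egfl6 and Npnt had r = -0.14 (permutation p = 0.63) and rho = -0.11 (permutation p = 0.679), with r = -0.70 within females and 0.65 within males, -0.13 without the 2 samples farthest from the median of Npnt and -0.37 without the 3 libraries that stood apart. The difference between these values of the sexes was not tested.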
